A study of Oryza sativa Japonica Group and Oryza sativa with 4 samples.

Results

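ATP-binding cassette (ABC) transporter genes were followed in leaves of 2 rice lines with and without the green rice leafhopper (GRH, Nephotettix cincticeps), a sap-feeding insect. A gene was counted as an ABC transporter when the RAP-DB description of at least 1 of its transcripts held the words "ABC transporter" or "ATP-binding cassette". This gave 95 genes with 136 transcripts, out of 37849 genes in all, and the choice used no expression value. ABC genes described in other words are left out, such as the RNase L inhibitor gene that the paper lists as subfamily E. The resistant line, NIL, is a near-isogenic line that carries the Grh1 locus of the indica cultivar Shingwang in the background of the japonica cultivar Ilpum. The susceptible cultivar Ilpum is its recurrent parent. Seedlings of both lines were 21 days old, and leaves were taken after 48 h with second instar nymphs (Ilpum GRH and NIL GRH) or without insects (Ilpum control and NIL control). Each of the 4 conditions had 1 library, so no difference could be set against the spread between plants, and no test between conditions was made. NIL is 1 line, and whatever else of the donor genome it holds cannot be told apart from Grh1 itself.

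ABC transporters are membrane proteins that use ATP to move compounds across a membrane, and plant genomes hold many more of them than animal genomes. Full-size members of the G subfamily, called pleiotropic drug resistance (PDR) proteins, sit mostly in the plasma membrane and export defence terpenoids, other secondary metabolites and some hormones. The short members of the same subfamily, called white-brown complex (WBC) proteins, carry lipids for cutin, wax, suberin and the pollen wall. Members of the B subfamily (multidrug resistance, MDR) include auxin carriers, those of the C subfamily (multidrug resistance-associated, MRP) load glutathione conjugates and other compounds into the vacuole, and those of the D subfamily bring fatty acyl compounds into the peroxisome. F members lack a membrane part, and the plant I group brings together small pieces that resemble bacterial ABC systems.

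By their descriptions, 15 of the genes were MDR, 14 PDR, 7 MRP, 6 WBC, 2 peroxisomal, 2 flippase-like, 1 of subfamily F and 1 of subfamily I. The other 47 descriptions could not be placed in 1 of these kinds and stayed out of the counts and sums by kind. Among them is Os01g0356400, described only with the multidrug resistance protein family, a name used for more than 1 kind. Descriptions of 29 of all 95 genes named only a protein domain. The genes lay on each of the 12 chromosomes, with 22 on chromosome 1 and 12 on chromosome 3.

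The deposited reads summed to 894661 in Ilpum GRH, 2119765 in Ilpum control, 1170099 in NIL GRH and 5037081 in NIL control. ABC transporter genes took 0.4449% of the reads in Ilpum GRH, 0.4525% in Ilpum control, 0.5084% in NIL GRH and 0.5057% in NIL control. The 95 genes together thus held a similar share of each library. Reads were assigned to 55 of the 95 genes in Ilpum GRH, 64 in Ilpum control, 56 in NIL GRH and 72 in NIL control, the order of the depths. A value of 0 may be a missed estimate. In Ilpum GRH, 876 of the 10957 genes for which Ilpum control predicted at least 10 reads were listed at 0, and 2 of 40 ABC transporter genes were among them. In NIL GRH, 475 of 11604 such genes were listed at 0, and 1 of 43 ABC transporter genes.

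Leaf markers were high in all libraries, but they moved with GRH. The 19 genes of chlorophyll a/b-binding proteins, 3 of which were listed at 0 throughout, summed to 14180 FPKM in Ilpum GRH and 27480 FPKM in Ilpum control, and to 6295 FPKM in NIL GRH and 18940 FPKM in NIL control. The 3 Rubisco activase genes summed to 4420 FPKM in Ilpum GRH and 12900 FPKM in Ilpum control, and to 3416 FPKM in NIL GRH and 7427 FPKM in NIL control. FPKM is the fragment count of a gene scaled to transcript length and library size. Of 3 genes for the Rubisco small subunit, 2 were listed at 0 in all libraries, and the third had 1672 FPKM in Ilpum GRH, 1255 FPKM in Ilpum control, 320.8 FPKM in NIL GRH and 2033 FPKM in NIL control. The part of these shifts in the values below was not tested, and in whole leaves fewer cells of a type and less RNA per cell cannot be told apart.

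Of the 95 genes, 58 averaged at least 1 FPKM across the libraries and entered the comparisons. The other 37 comprised 14 genes listed at 0 in every library and 23 genes with few reads, none above 38 reads or 3.393 FPKM in a library. For 9 of the 95 genes, reads were found in NIL control only, which was the deepest library. Differences are given as log2FC, the log2 ratio of FPKM + 1. The 95% intervals beside them are counting intervals of the log2 ratio of reads scaled to the library totals. They cover counting error only, and both reads of a pair may have been counted, so they are too narrow.

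The most abundant ABC transporter gene was Os09g0332700, annotated as similar to PDR-type ABC transporter 2 (IRGSP-1.0 chromosome 9, 9970574-9979350, minus strand). Its level was 205 FPKM in Ilpum GRH, 200.1 FPKM in Ilpum control, 261 FPKM in NIL GRH and 202 FPKM in NIL control. The 2 control leaves and the infested Ilpum leaf were nearly level (log2FC 0.03 with GRH in Ilpum), and the infested NIL leaf was somewhat higher (log2FC 0.37, interval 0.32 to 0.59). The next was Os01g0356400, a gene similar to the multidrug resistance protein ABC transporter family (chromosome 1, 14340326-14357449, minus strand), with 94.5 FPKM in Ilpum GRH, 160.5 FPKM in Ilpum control, 148 FPKM in NIL GRH and 96.6 FPKM in NIL control. Infestation went with a lower level in Ilpum and a higher level in NIL for this gene, as described further on. The F subfamily gene Os08g0564100 had 88.5 FPKM in Ilpum GRH, 117 FPKM in Ilpum control, 92.0 FPKM in NIL GRH and 122 FPKM in NIL control, so it was lower with GRH by the same amount in both lines (log2FC -0.40 in Ilpum and -0.41 in NIL), which is under 2-fold.

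The vacuolar class was represented among the abundant genes by Os04g0620000, described as a C-type transporter of arsenic detoxification that reduces arsenic in grains (chromosome 4, 31502967-31514308, minus strand). Its level was 108 FPKM in NIL GRH and 132 FPKM in NIL control, and 52.2 FPKM in Ilpum GRH and 80.4 FPKM in Ilpum control. Both NIL leaves were above both Ilpum leaves. The MRP-like gene Os03g0142800 (chromosome 3, 2367856-2374437, plus strand) had the same order, with 67.2 FPKM in NIL GRH and 98.4 FPKM in NIL control, and 18.8 FPKM in Ilpum GRH and 45.4 FPKM in Ilpum control.

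The first question was which ABC transporter genes differed between infested and uninfested leaves of the susceptible line. In Ilpum, 11 of the 58 genes (19.0%) were at least 2-fold higher with GRH, while 20.4% of all 18575 genes compared were, and 11 (19.0%) were at least 2-fold lower, while 28.6% of all genes were. The share of higher ABC transporter genes was thus near the background and the share of lower ones was under it. Counting only genes whose interval also left out 0, 10 were higher (18.7% of all genes) and 10 were lower (21.3% of all genes). The median log2FC was -0.05 over the 58 genes and -0.10 over all genes.

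In NIL, 4 of the 58 genes (6.9%) were at least 2-fold higher with GRH, against 14.7% of all genes, and 10 (17.2%) were at least 2-fold lower, against 20.9% of all genes. With the interval required, 4 genes were higher (13.5% of all genes) and 9 were lower (15.6% of all genes). The median log2FC was -0.09 over the 58 genes and -0.06 over all genes. The 4 genes that were higher in NIL were all higher in Ilpum as well. Among genes that averaged at least 100 reads, 3 of 26 ABC transporter genes were higher in NIL, against 8.79% of all such genes.

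**Figure D1:**
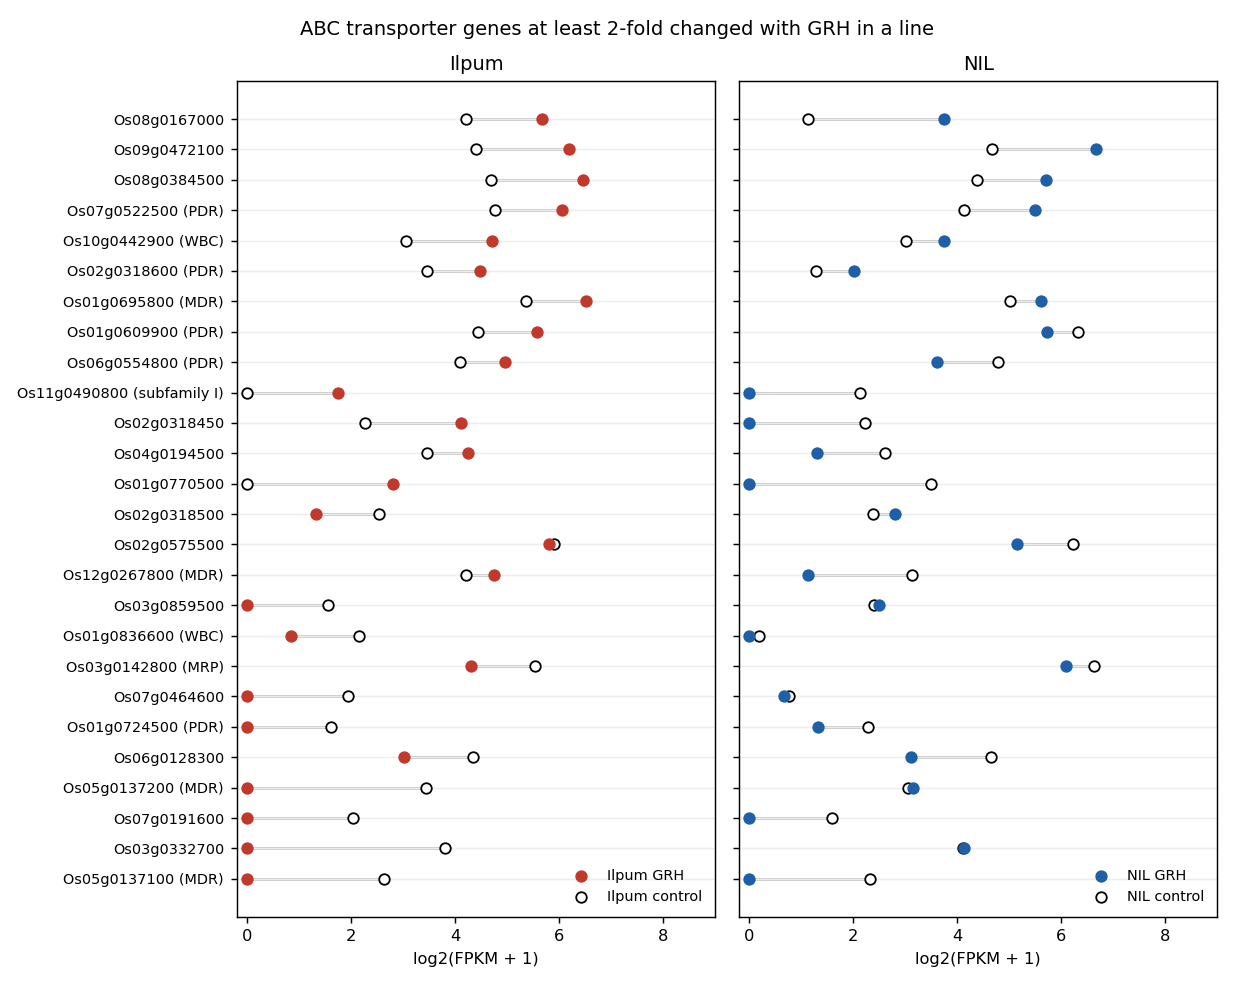
Levels, as log2(FPKM + 1), of the ABC transporter genes that were at least 2-fold higher or lower with GRH in Ilpum or in NIL, or both. Filled points are the infested leaf, open points the uninfested leaf of the same line, 1 library each, and genes run from the highest mean log2FC of both lines at the top to the lowest. Os08g0167000, Os09g0472100, Os08g0384500 and Os07g0522500 lay to the right of the open points in both lines.

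These 4 genes, at least 2-fold higher in both lines, made up 6.9% of the genes compared, near the 6.2% among all genes. Os09g0472100 is annotated only as similar to an ABC transporter (chromosome 9, 18034121-18039233, plus strand). It had 71.9 FPKM in Ilpum GRH and 20.04 FPKM in Ilpum control, and 101 FPKM in NIL GRH and 24.3 FPKM in NIL control, from 110 to 314 reads per library. Both infested leaves were well above both uninfested leaves, with log2FC 1.79 in Ilpum (interval 1.52 to 2.23) and 2.01 in NIL (1.83 to 2.29). It was the only one of the 4 with a higher infested level in NIL than in Ilpum.

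Os08g0384500 encodes a protein with an ABC transporter-like domain (chromosome 8, 18128558-18132719, minus strand). Its level was 87.2 FPKM in Ilpum GRH and 24.8 FPKM in Ilpum control, and 51.0 FPKM in NIL GRH and 19.7 FPKM in NIL control. Log2FC was 1.77 in Ilpum (1.54 to 2.17) and 1.33 in NIL (1.09 to 1.68), and the infested leaves lay above the uninfested ones without overlap. Os07g0522500, similar to PDR6 (chromosome 7, 20214297-20218689, plus strand), had 65.6 FPKM in Ilpum GRH and 26.2 FPKM in Ilpum control, and 44.0 FPKM in NIL GRH and 16.4 FPKM in NIL control. The 2 lines had much the same log2FC for this PDR gene, 1.37 in NIL (1.04 to 1.82) and 1.29 in Ilpum (0.95 to 1.77).

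The fourth, Os08g0167000, has an ABC transporter-like domain (chromosome 8, 3928463-3933577, plus strand) and had 45 reads in NIL GRH and 19 in NIL control, and 142 in Ilpum GRH and 115 in Ilpum control. Its level was 12.4 FPKM in NIL GRH and 1.19 FPKM in NIL control, and 50.0 FPKM in Ilpum GRH and 17.5 FPKM in Ilpum control. Its log2FC was 2.61 in NIL (2.55 to 4.21) and 1.47 in Ilpum (1.18 to 1.92). The infested NIL leaf nevertheless stayed below the uninfested Ilpum leaf, so the lines did not overlap for this gene.

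**Figure D2:**
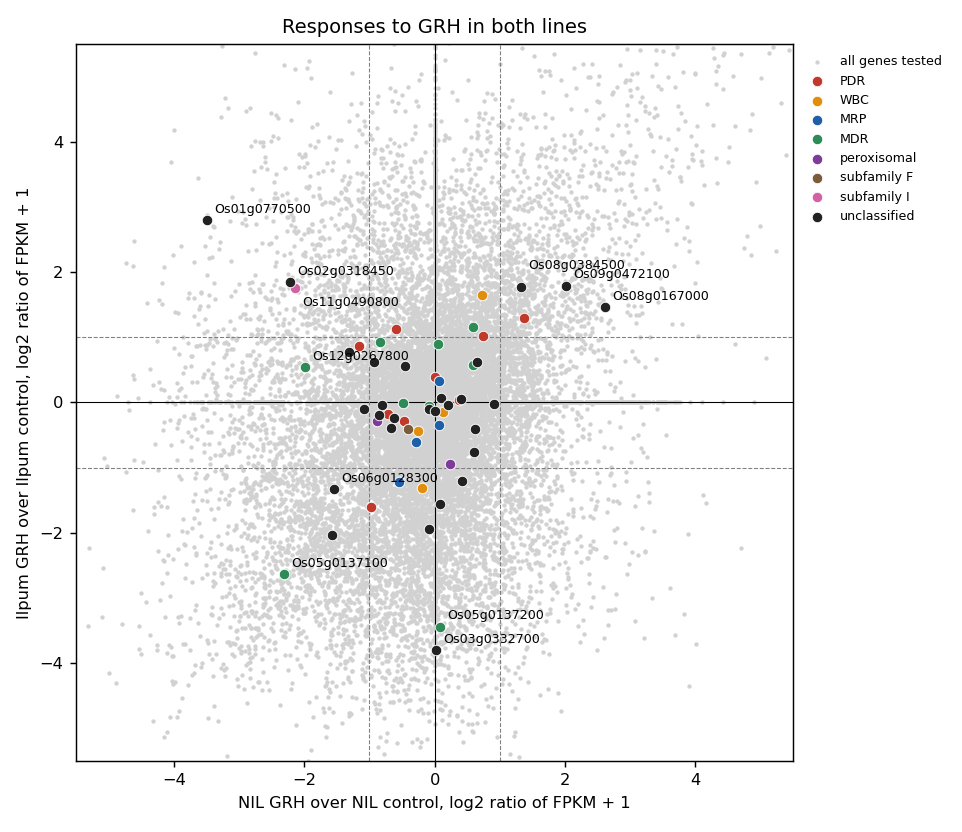
Log2 ratio of FPKM + 1 with GRH in Ilpum (vertical axis) against that in NIL (horizontal axis) for the 58 ABC transporter genes, coloured by kind, and all 18575 genes compared (grey). Dashed lines mark 2-fold, and 87 genes, none an ABC transporter, lie beyond the axes. Most ABC transporter genes sat within 2-fold in both lines, 4 lay in the upper right corner and 3 in the upper left.

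At the other end, 3 genes (5.17%) were at least 2-fold lower in both lines, against 9.39% of all genes. Only Os06g0128300 among them had many reads. It is described as a mitochondrial ABC transporter of iron homeostasis and meristem maintenance (chromosome 6, 1492909-1502583, minus strand), a type that exports sulphur compounds from mitochondria for iron-sulphur proteins of the cytosol. It had 19 reads in Ilpum GRH, 107 in Ilpum control, 26 in NIL GRH and 316 in NIL control. This was 7.06 FPKM in Ilpum GRH and 19.2 FPKM in Ilpum control, and 7.64 FPKM in NIL GRH and 24.1 FPKM in NIL control. Log2FC was -1.33 in Ilpum (-2.04 to -0.54) and -1.54 in NIL (-2.13 to -0.92). Its reads were assigned to different transcripts, to the transcript of 2725 bases in both infested leaves and mostly to that of 2522 bases in both uninfested ones.

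The others rested on few reads. The MDR-like gene Os05g0137100 had 0 reads in both infested leaves, against 18 reads in Ilpum control and 33 reads in NIL control. Taking 3 reads as the limit for a library at 0, it was at least 2.53-fold lower in Ilpum GRH and at least 2.56-fold lower in NIL GRH. Such bounds take the reads of the other library as exact and can exceed the fold at the end of the interval. The interval of Os05g0137100 ended at -0.89 in Ilpum and -0.97 in NIL. Os07g0191600, a locus whose transcripts are annotated in part with an ABC transporter-like domain and in part with a domain of unknown function, had 0 reads in both infested leaves, against 22 in Ilpum control and 16 in NIL control. In NIL its interval (an upper end of 0.16) did not leave out 0.

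The gene kinds did not move as blocks, with a median log2FC in Ilpum of 0.38 for PDR, 0.54 for MDR, -0.48 for MRP and -0.30 for WBC genes, and in NIL of -0.48 for PDR, -0.08 for MDR, -0.11 for MRP and -0.04 for WBC genes. Beside the counts by kind stand the shares over all genes, 20.4% higher and 28.6% lower in Ilpum and 14.7% higher and 20.9% lower in NIL, and with 1 to 9 genes compared in a kind the counts are too small to set a share against them. Of 9 PDR genes compared, 3 were at least 2-fold higher and 1 lower in Ilpum GRH, and 1 was higher and 1 lower in NIL GRH. The 14 PDR genes summed to 420 FPKM in Ilpum GRH and 326 FPKM in Ilpum control, and to 410 FPKM in NIL GRH and 383 FPKM in NIL control. The gene similar to PDR4, Os01g0609900, was among those higher in Ilpum, with 46.6 FPKM in Ilpum GRH and 20.7 FPKM in Ilpum control (log2FC 1.13, 0.91 to 1.46). Its NIL values were 51.9 FPKM in NIL GRH and 79.1 FPKM in NIL control (log2FC -0.60, -0.72 to -0.36). The uninfested Ilpum leaf was the low one of the 4.

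Os06g0554800, similar to a PDR1 transporter, was likewise higher with GRH in Ilpum and lower in NIL. It had 30.1 FPKM in Ilpum GRH and 16.0 FPKM in Ilpum control (log2FC 0.87, 0.60 to 1.303), and 11.3 FPKM in NIL GRH and 26.4 FPKM in NIL control (log2FC -1.16). By reads alone the NIL difference was smaller, with an interval of -0.99 to -0.17, since 100 of the 383 reads of NIL control were given to a transcript of 1368 bases that had none in the other libraries. The other PDR1-like gene, Os01g0724500, had 0 reads in Ilpum GRH and 15 in Ilpum control, and 6 in NIL GRH and 68 in NIL control. This was at least 2.11-fold lower in Ilpum GRH, and log2FC was -0.97 in NIL (-2.89 to -0.20).

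The cuticle and defence gene Os01g0177900, a PDR gene by its description, was too low to compare, with 5 reads in Ilpum GRH, 0 in Ilpum control, 0 in NIL GRH and 20 in NIL control. Os09g0392400, described as PDR13, showed how much the assignment to transcripts can weigh. Its FPKM hardly differed (26.5 in Ilpum GRH and 32.6 in Ilpum control, log2FC -0.29), while its 60 reads in Ilpum GRH and 280 in Ilpum control gave an interval of -1.41 to -0.57.

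Of 9 MDR genes compared, 1 was higher and 2 were lower in Ilpum GRH, and 0 were higher and 2 lower in NIL GRH. The one that was higher, Os01g0695800, had 90.5 FPKM in Ilpum GRH and 40.1 FPKM in Ilpum control (log2FC 1.15, 0.74 to 1.68), and 47.5 FPKM in NIL GRH and 31.4 FPKM in NIL control (log2FC 0.58, 0.12 to 1.07). The summed FPKM of the 15 MDR genes was highest in Ilpum GRH, at 267 FPKM against 182 FPKM in Ilpum control, with 171 FPKM in NIL GRH and 158 FPKM in NIL control. Part of that sum was Os08g0564300, which is similar in part to P-glycoprotein 1 and went opposite ways on the 2 scales. It had 59.7 FPKM in Ilpum GRH and 39.6 FPKM in Ilpum control (log2FC 0.58), but 88 reads in Ilpum GRH and 347 in Ilpum control (interval -1.09 to -0.39). Of the 88 reads 63 were given to a transcript of 1474 bases, while 319 of the 347 were given to one of 4192 bases.

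Os05g0137200, similar to P-glycoprotein ABCB5, had 0 reads in Ilpum GRH and 32 in Ilpum control, and 14 in NIL GRH and 56 in NIL control. It was at least 4.5-fold lower in Ilpum GRH, while in NIL the levels were 7.83 FPKM with GRH and 7.31 FPKM without (log2FC 0.09, -0.85 to 0.97). Os12g0267800, of the multidrug and pheromone exporter group, was the reverse case. It had 34 reads in Ilpum GRH and 54 in Ilpum control (log2FC 0.54, -0.09 to 1.22), and 2 in NIL GRH and 56 in NIL control (log2FC -1.99, -5.78 to -0.78).

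**Figure D3:**
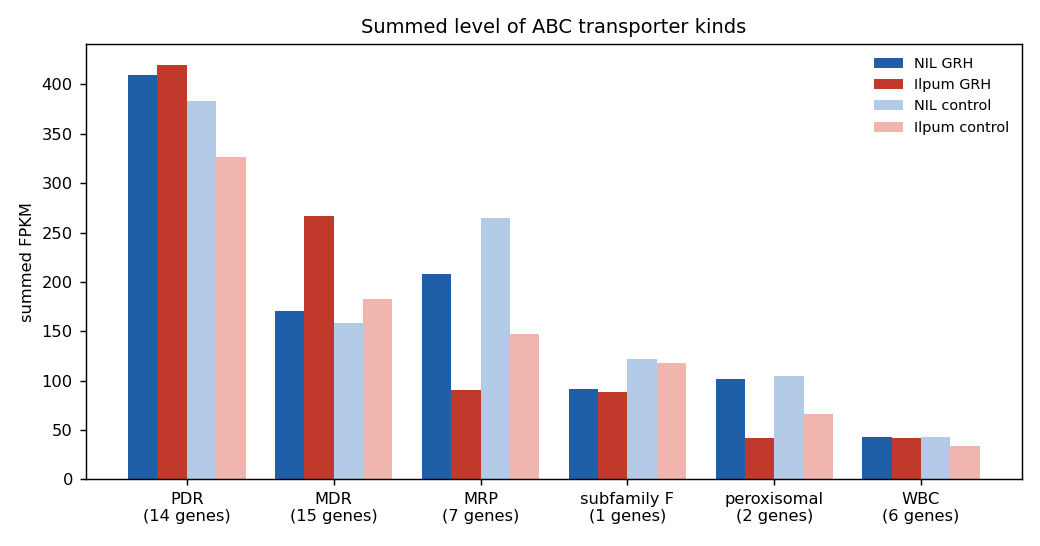
Summed FPKM of 6 kinds of ABC transporter genes in the 4 libraries, 1 bar per library and without error bars, since each condition had 1 library. The MRP genes summed to 90.2 FPKM in Ilpum GRH, the lowest of the 4 bars, and to 265 FPKM in NIL control, the highest.

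The MRP genes, which load the vacuole, were also compared between the lines. All 4 MRP genes compared had a log2FC of NIL over Ilpum above 0, infested and uninfested. Of the 58 genes, 28 were above 0 and 28 below with GRH, and 28 above and 30 below in controls. How many of all genes were above 0 in both pairs was not counted, so the 4 MRP genes have no such share beside them. They were also above 0 with TPM, quantile-normalized FPKM, TMM scaling or a pseudocount of 0.1, all computed from the same 4 libraries. The median over all genes was 0 with GRH and -0.02 in controls. Over all genes that averaged at least 100 reads it was 0.15 with GRH and 0.02 in controls. Os01g0356400, which was not placed in a kind, had 0.64 with GRH and -0.73 in controls. For Os03g0142800 log2FC of NIL over Ilpum was 1.78 with GRH (1.47 to 2.12) and 1.10 in controls (0.95 to 1.22). For Os04g0620000 it was 1.03 with GRH (0.80 to 1.22) and 0.71 in controls (0.61 to 0.82). Os04g0209200 had 0.94 with GRH (0.37 to 1.70) and 1.20 in controls (0.89 to 1.78), and Os01g0173900 had 0.57 with GRH (0.11 to 1.06) and 0.15 in controls (-0.11 to 0.41). The 7 MRP genes together summed to 208 FPKM in NIL GRH and 90.2 FPKM in Ilpum GRH, and to 265 FPKM in NIL control and 147 FPKM in Ilpum control. These 4 genes were read in the same 4 libraries and are not independent of each other as evidence on the lines.

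With infestation, 1 of the 4 MRP genes was at least 2-fold lower in Ilpum, Os03g0142800 (log2FC -1.23, -1.56 to -0.92), and none in NIL, where Os03g0142800 had -0.54 (-0.67 to -0.38). Os04g0620000 had log2FC -0.61 in Ilpum (-0.79 to -0.39) and -0.29 in NIL (-0.41 to -0.17).

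Of 4 WBC genes compared, 1 was higher and 1 lower in Ilpum GRH, and 0 passed 2-fold in NIL GRH. Os10g0442900 is described as a WBC protein of silicon-promoted Casparian bands in the exodermis. It had 25.2 FPKM in Ilpum GRH and 7.33 FPKM in Ilpum control, and 12.5 FPKM in NIL GRH and 7.09 FPKM in NIL control. Its log2FC was 1.65 in Ilpum (1.26 to 2.35) and 0.73 in NIL (0.31 to 1.34), so both infested leaves were above both controls. The pollen wall gene Os01g0836600 was low throughout, with 2 reads in Ilpum GRH, 20 in Ilpum control, 0 in NIL GRH and 2 in NIL control.

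Neither peroxisomal gene reached 2-fold in either line. Os01g0966100 had 19.2 FPKM in Ilpum GRH and 37.8 FPKM in Ilpum control (log2FC -0.94, -1.57 to -0.28), and 84.7 FPKM in NIL GRH and 72.0 FPKM in NIL control (log2FC 0.23, -0.03 to 0.52). Between infested leaves it was higher in NIL (log2FC 2.09, 1.45 to 2.73). Os01g0218700 had 22.8 FPKM in Ilpum GRH and 28.2 FPKM in Ilpum control, and 17.4 FPKM in NIL GRH and 32.9 FPKM in NIL control (log2FC -0.88 in NIL, -1.35 to -0.54). Both flippase-like genes had at most 3 reads in any library.

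Several other members are described by a role in another organ, and their levels in leaf ranged widely. Os06g0607700, of anther and pollen development, and Os09g0401100, of mycorrhizal arbuscules, had 0 reads in all 4 libraries. Os05g0120000, similar to a stigma and style transporter, had 1 read in NIL control and 0 in the others. The root suberization gene Os03g0281900 was present at 4.66 FPKM in Ilpum GRH, 2.69 FPKM in Ilpum control, 3.03 FPKM in NIL GRH and 1.56 FPKM in NIL control, with intervals that held 0 in both lines (-0.23 to 2.09 in Ilpum, -0.27 to 2.11 in NIL). The description of Os03g0755100, an aluminium detoxification gene, names no organ. It was read well, at 24.4 to 32.6 FPKM in all 4 leaves, with log2FC 0.06 in Ilpum (-0.36 to 0.56) and 0.41 in NIL (0.09 to 0.78).

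**Figure D4:**
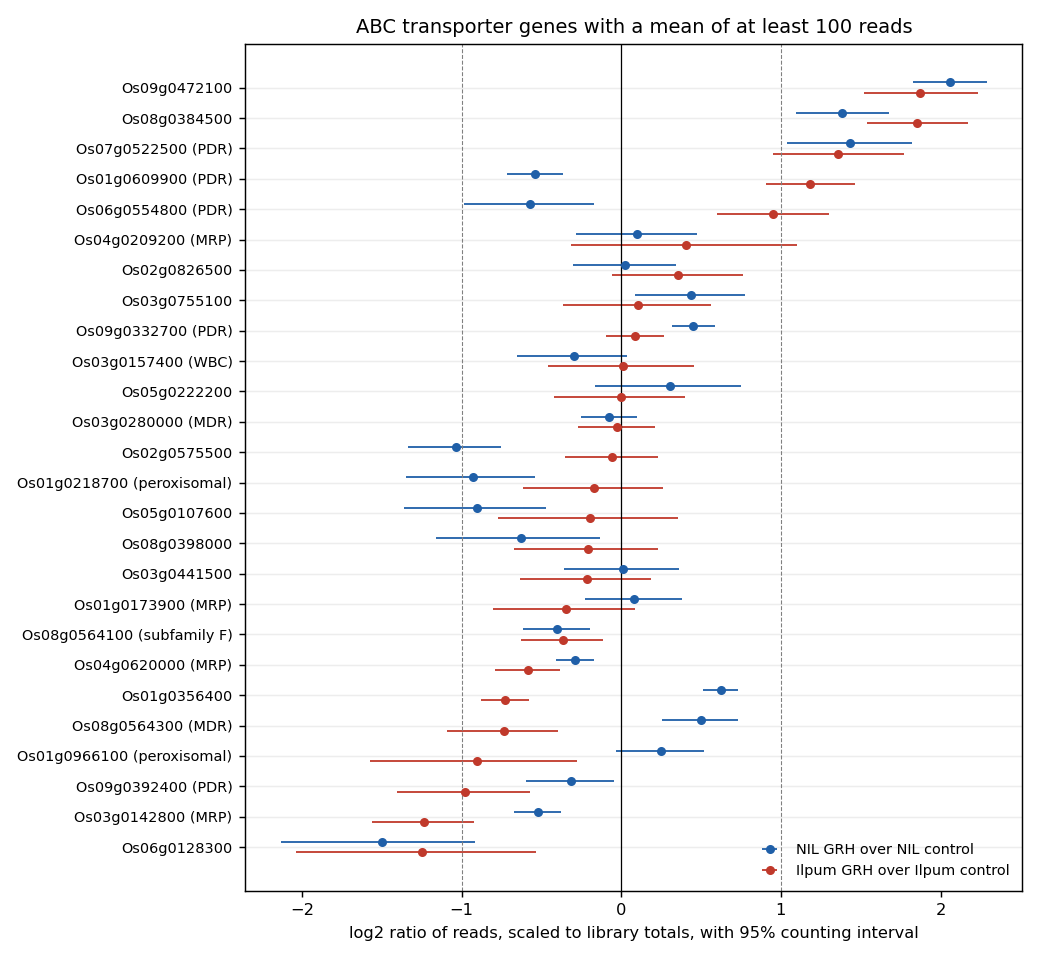
Log2 ratio of reads with GRH over control, scaled to the library totals, for the 26 ABC transporter genes that averaged at least 100 reads, in NIL (blue) and Ilpum (red). Bars are 95% counting intervals of 1 library against 1, and dashed lines mark 2-fold. In both lines the intervals of 3 genes lay above 0 (Os09g0472100, Os08g0384500, Os07g0522500) and those of 5 lay below 0 (Os06g0128300, Os03g0142800, Os04g0620000, Os08g0564100, Os09g0392400), and 4 genes had intervals on opposite sides of 0 (Os01g0609900, Os06g0554800, Os01g0356400, Os08g0564300).

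The design also asks whether the response to GRH differed between the resistant and the susceptible line. The difference of the responses, NIL minus Ilpum, was at least 1 on the log2 scale with a counting interval above 0 for 6 of the 58 genes, against 15.6% of all genes, and at least 1 below 0 for 9 genes, against 14.6% of all genes. Among deeply read genes Os01g0356400 had the narrowest interval. It had 920 reads in NIL GRH and 2571 in NIL control, and 460 in Ilpum GRH and 1804 in Ilpum control. Log2FC was 0.61 in NIL (0.51 to 0.73) and -0.76 in Ilpum (-0.88 to -0.58), a difference of 1.37 (1.17 to 1.53), with neither response reaching 2-fold.

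Os01g0609900 had a difference of -1.73 (-2.04 to -1.40). In NIL control 1012 of its 1913 reads were given to its transcript of 4445 bases, which had 30 reads in Ilpum GRH and 0 in the other libraries. Os02g0575500, described as ABC transporter-like, was nearly level in Ilpum, with 54.6 FPKM in Ilpum GRH and 58.5 FPKM in Ilpum control, and lower with GRH in NIL, with 34.3 FPKM in NIL GRH and 73.6 FPKM in NIL control (log2FC -1.08, -1.33 to -0.75). The difference of its responses, -0.98, was just under 1.

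Genes at least 2-fold changed in opposite directions numbered 3 (5.17%), against 6.03% of all genes, and all 3 were higher with GRH in Ilpum and lower in NIL. All of them had few reads. Os01g0770500, similar to an ABC transporter ATP-binding protein, had 6 reads in Ilpum GRH and 0 in Ilpum control, and 0 in NIL GRH and 56 in NIL control. Relative to the limit of 3 reads, Ilpum GRH was at least 4.74-fold higher and NIL GRH at least 4.34-fold lower. Its interval began at 1.48 in Ilpum and ended at -1.77 in NIL. Os11g0490800, a gene of group I described with chloroplast development, had 5 reads in Ilpum GRH and 0 in Ilpum control, and 0 in NIL GRH and 31 in NIL control. By the same limit this is at least 3.95-fold higher and at least 2.4-fold lower. Its interval began at 1.12 in Ilpum and ended at -0.88 in NIL. Os02g0318450, with an ABC transporter-like domain, had 17 reads in Ilpum GRH and 9 in Ilpum control, and 0 in NIL GRH and 20 in NIL control. Each of the 3 rests on a library with 0 reads.

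Other genes with low counts were at 0 in Ilpum GRH alone. Os03g0332700, similar to an ATP-binding component, had 0 reads in Ilpum GRH, 33 in Ilpum control, 24 in NIL GRH and 99 in NIL control, and was at least 4.64-fold lower in Ilpum GRH. Its NIL levels were 16.5 FPKM with GRH and 16.3 FPKM without. Os03g0859500 had 0 reads in Ilpum GRH, 12 in Ilpum control, 15 in NIL GRH and 60 in NIL control, which is at least 1.69-fold lower in Ilpum GRH. Os07g0464600 had 0 reads in Ilpum GRH, 18 in Ilpum control, 3 in NIL GRH and 11 in NIL control. Of the 11 genes lower in Ilpum, 7 were at 0 reads in Ilpum GRH, the shallowest library. How many of all genes lower in Ilpum were at 0 there was not counted, so whether this is particular to ABC transporter genes is not known.

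**Figure D5:**
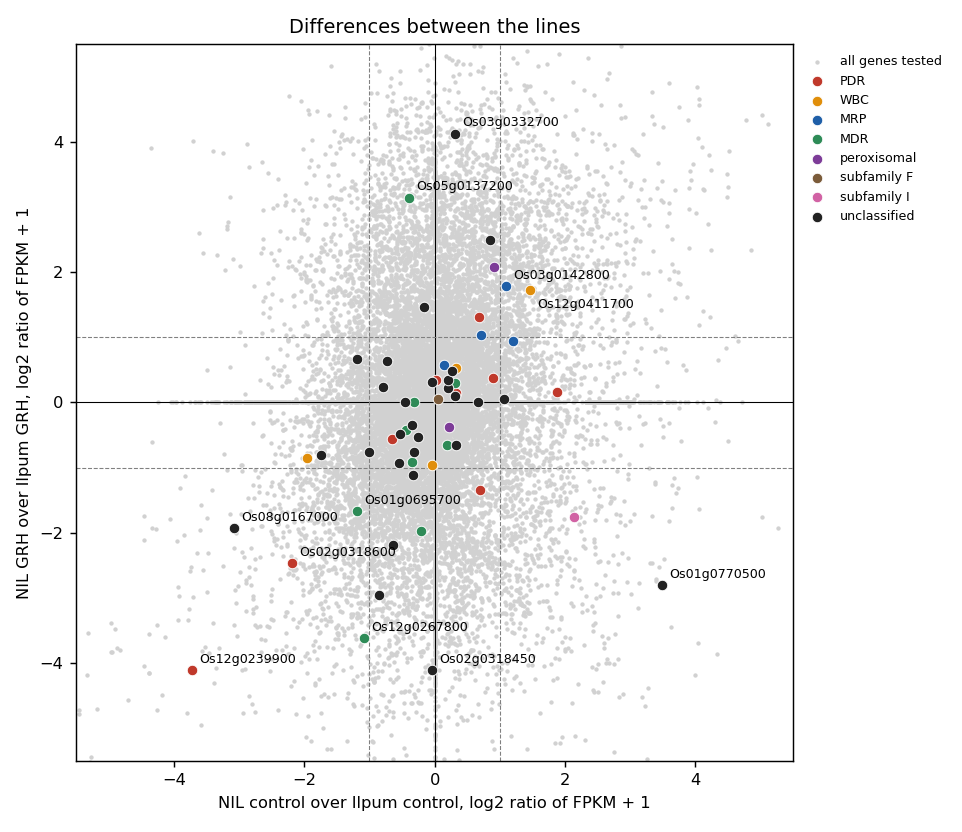
Log2 ratio of FPKM + 1 of NIL over Ilpum with GRH (vertical axis) against that in controls (horizontal axis) for the 58 ABC transporter genes, coloured by kind, and all 18575 genes compared (grey). Dashed lines mark 2-fold, and 60 genes, none an ABC transporter, lie beyond the axes. Os12g0239900, Os08g0167000, Os02g0318600, Os12g0267800 and Os01g0695700 sat in the lower left corner, and Os03g0142800 and Os12g0411700 in the upper right.

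The remaining comparison set NIL against Ilpum. With GRH, 9 of the 58 genes were at least 2-fold higher in NIL, against 25.0% of all genes, and 13 were at least 2-fold lower, against 23.7% of all genes. Without insects, 7 were higher (14.1% of all genes) and 9 were lower (14.0% of all genes). The line difference held in both pairs for 2 genes higher in NIL, against 5.92% of all genes, and for 5 genes lower in NIL (8.62%), against 5.17% of all genes. The comparison of controls and that of infested leaves share no library. The median log2FC of NIL over Ilpum was 0 with GRH and -0.04 in controls over the 58 genes.

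The 5 genes lower in NIL included Os08g0167000, with log2FC -1.93 with GRH (-2.56 to -1.55) and -3.08 in controls (-4.63 to -3.14). By reads alone its log2 ratio in controls was -3.85, the value to which that interval belongs. The PDR-like gene Os12g0239900, a transcript of 553 bases (chromosome 12, 7731409-7731961, minus strand), had no read in either NIL leaf, against 9 reads in Ilpum GRH and 15 in Ilpum control. By the limit of 3 reads it was at least 3.92-fold lower in NIL GRH and at least 11.9-fold lower in NIL control. Its interval ended at -1.37 with GRH and at -3.09 in controls. The PDR-like gene Os02g0318600, with a transcript of 541 bases, had 3 reads in NIL GRH and 11 in Ilpum GRH (log2FC -2.47, -4.74 to -0.34), and 4 in NIL control and 13 in Ilpum control (-2.19, -5.02 to -1.25).

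Os12g0267800 was lower in NIL by log2FC -3.61 with GRH (-7.58 to -2.51) and -1.08 in controls (-1.76 to -0.63). The fifth, the MDR-like gene Os01g0695700, had 0 reads in NIL GRH and 9 in Ilpum GRH, and 8 in NIL control and 19 in Ilpum control. The WBC gene Os12g0411700 was one of the 2 genes higher in NIL, with 10.2 FPKM in NIL GRH and 2.37 FPKM in Ilpum GRH (log2FC 1.73, 0.65 to 3.27), and 9.30 FPKM in NIL control and 2.74 FPKM in Ilpum control (1.46, 0.70 to 2.32). The other was Os03g0142800.

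Some line differences reached 2-fold in 1 pair only. Os08g0398300 had 4 reads in NIL GRH and 8 in Ilpum GRH, with an interval of -3.57 to 0.51, but 0 in NIL control and 18 in Ilpum control, which is at least 14.3-fold lower. Os04g0194500, similar to an ABC transporter-like protein, had 1.45 FPKM in NIL GRH and 17.9 FPKM in Ilpum GRH (log2FC -2.95, -5.19 to -2.48), and 5.10 FPKM in NIL control and 10.02 FPKM in Ilpum control (-0.85, -1.44 to -0.53).

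Members often lay near each other, which the choice by description did not use. Neighbours were counted when at most 100 kb apart, whatever other genes lay between them. By this, 37 of the 95 genes fell into 16 groups of up to 4 genes, and 21 of the 37 were among those compared. Some neighbours differed in direction. On chromosome 2, between 12664725 and 12680627 on the minus strand, Os02g0318450 had log2FC 1.84, Os02g0318500 -1.20 and Os02g0318600 1.01 with GRH in Ilpum, each from at most 17 reads per infested leaf. On chromosome 5, Os05g0137100 and Os05g0137200 were both at 0 in Ilpum GRH, but in NIL GRH only Os05g0137100 was. Next to the strongly expressed Os09g0472100, the WBC gene Os09g0472200 had 9 reads in NIL control and 0 in the others. Near Os09g0332700, the genes Os09g0333000 and Os09g0333500 had 0 reads in all 4 libraries.

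Whether neighbours are near-identical copies was not examined. Such copies may share reads, and how their reads were split is not given in the sources used here, so values of single neighbours are uncertain. The longest transcript was under 1500 bases for 16 of the 95 genes and for 12 of the 58 compared, which is short for an ABC transporter.

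Genes that work beside ABC transporters in detoxification and in the surface of the plant were taken from lists of words in the descriptions. Their shares stand beside 20.4% of all genes higher and 28.6% lower in Ilpum, and 14.7% higher and 20.9% lower in NIL. Of 24 multidrug and toxic compound extrusion (MATE) carriers compared, 8 (33.3%) were at least 2-fold higher and 6 (25.0%) lower in Ilpum GRH, and 7 (29.2%) were higher and 3 (12.5%) lower in NIL GRH (median log2FC 0.48 in Ilpum and 0.21 in NIL). Of 29 glutathione S-transferases, which make the conjugates that MRP proteins carry, 7 (24.1%) were higher and 5 (17.2%) lower in Ilpum GRH, and 10 (34.5%) were higher and 3 (10.3%) lower in NIL GRH (median 0.08 in Ilpum and 0.49 in NIL). None of the 4 MRP genes was at least 2-fold higher in either line. Of 100 UDP-glycosyltransferases, 24 (24.0%) were higher and 35 (35.0%) lower in Ilpum GRH, and 18 (18.0%) were higher and 12 (12.0%) lower in NIL GRH (median -0.38 in Ilpum and 0.11 in NIL).

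Of 25 genes of wax and cutin synthesis, whose products short G proteins export, 10 (40%) were higher and 6 (24.0%) lower in Ilpum GRH, and 8 (32.0%) were higher and 4 (16.0%) lower in NIL GRH, with median log2FC of 0.67 in Ilpum and 0.57 in NIL, where the median over all genes was -0.10 in Ilpum and -0.06 in NIL. Of 10 genes of peroxisomal beta-oxidation, 1 was higher and 1 lower in Ilpum GRH, and 1 was higher and 0 lower in NIL GRH (median -0.12 in Ilpum and 0.58 in NIL). Of 7 genes of iron-sulphur cluster assembly, 1 was higher and 2 lower in Ilpum GRH, and 0 passed 2-fold in NIL GRH (median -0.33 in Ilpum and -0.25 in NIL), while the mitochondrial transporter Os06g0128300 was at least 2-fold lower in both lines. The word lists take in some regulators beside the enzymes.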

How the data were processed

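RNA of leaves was sequenced as 1 library per condition. The paper describes duplicates, while each condition has 1 set of deposited values. The authors gave FPKM values of StringTie 1.3.4d, run on HISAT alignments to IRGSP-1.0 with RAP-DB transcripts, per the file headers. TPM values were also deposited from those runs. The authors deposited an estimated count per transcript, in whole reads. The methods of the paper instead name Trinity, Trimmomatic, edgeR and CD-HIT-EST. Counting used strand, and the 34 genes that overlap an ABC transporter gene all lie on the other strand.

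Gene values are sums over transcripts. The members and lists were chosen with earlier results of these data known. Genes that averaged at least 1 FPKM were compared as log2 ratios of FPKM + 1, and 2-fold was the threshold. Ratios of reads in 2 libraries were given exact 95% intervals from the binomial distribution. Intervals of the difference of the responses used a normal approximation on log reads with a small number added, which is rough at 0 reads. A library at 0 was taken as 3 reads for bounds. The reads of the other library were taken as exact, so its counting error is left out. A count of 3 reads is 3.35 CPM in Ilpum GRH, 1.42 in Ilpum control, 2.56 in NIL GRH and 0.596 in NIL control. Genes named were the 8 highest and 8 lowest in each line, the 5 most abundant and those changed in both lines, in opposite directions or in both line pairs. The other genes named were chosen after their values were seen. Tools were Python 3.11.15, numpy 2.4.6, pandas 2.3.3, scipy 1.17.1, matplotlib 3.10.9, R 4.3.3 and edgeR 4.0.16 (for TMM factors only). Only the read ratios and their exact intervals were tested on simulated counts, drawn with counting error alone.

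Alternatives were TPM, quantile-normalized FPKM, TMM-scaled counts with 0.5 added, a pseudocount of 0.1, filters at 5 FPKM and at none, 4-fold, genes with a single transcript, descriptions of more than a domain, and a mean of at least 100 reads, the last chosen after seeing the data. MATE carriers were found by the whole word MatE in its own case, and no gene matched a Casparian strip marker. Among 20 genes with anther words, 11 were listed at 0, and their sum was 17.1 FPKM in Ilpum GRH, 21.6 in Ilpum control, 28.3 in NIL GRH and 24.7 in NIL control. Sequences, promoters and RefSeq names of the members were not analysed here.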

Additional observations from a re-analysis of the deposited data

Results flagged for a closer look

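For 7 ABC transporter genes the 2 lines went opposite ways with GRH, each response having a counting interval on its own side of 0, and with 1 library per condition the difference was not tested. The values are log2FC in NIL minus log2FC in Ilpum.

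The difference was 1.37 for Os01g0356400 (0.61 in NIL and -0.76 in Ilpum), the only one of the 7 that was higher in NIL. It was -1.73 for the PDR4-like gene Os01g0609900 (-0.60 in NIL and 1.13 in Ilpum), and -2.03 for the PDR1-like gene Os06g0554800 (-1.16 in NIL and 0.87 in Ilpum). For Os04g0194500 it was -2.10 (-1.32 in NIL and 0.78 in Ilpum), with 6 reads in NIL GRH. The others had a library at 0 reads, so that their size depends on the number added to FPKM: -4.06 for Os02g0318450, -3.89 for Os11g0490800 and -6.30 for Os01g0770500.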

How the results depend on the processing

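No paired analysis was possible because each condition had 1 library. Over all alternatives, 130 recomputed values stayed close to those given above, counts within 1.5 times (in NIL 10 genes lower became 15 with TMM scaling) and medians within the interval of the median over genes, and 44 moved. No log2FC of at least 1 in a named gene changed sign under another scaling or pseudocount. The 4-fold threshold left 1 gene higher and 4 lower in Ilpum, 2 higher and 4 lower in NIL, 4 higher and 7 lower in NIL over Ilpum with GRH, and 2 higher and 3 lower in controls. It left 0 genes higher and 1 lower in both lines, 1 opposite, and 0 higher and 2 lower in NIL in both pairs.

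Over the 26 genes that averaged at least 100 reads, chosen after seeing the data, 4 were higher and 2 lower in Ilpum. In NIL, 3 were higher and 3 lower. In NIL over Ilpum, 3 were higher and 1 lower with GRH, and 3 higher and 1 lower in controls (median 0.24). Of the 26, 1 was lower in both lines, 0 were opposite, and 1 was higher and 0 lower in NIL in both pairs. Of all 4769 such genes, 9.69% were higher and 18.7% lower in Ilpum, and 8.79% higher and 9.29% lower in NIL. In NIL over Ilpum, 19.7% were higher and 9.90% lower with GRH, and 7.99% higher and 6.12% lower in controls. With a mean of at least 5 FPKM, 45 genes were compared. Of these, 4 were lower in Ilpum, against 22.9% of all such genes, and 6 were lower in NIL, against 14.8%. In NIL control over Ilpum control 5 were lower, against 11.8%, while 1 was lower in both lines and 1 opposite. With 1 annotated transcript, 38 genes were compared. Of these, 7 were lower in Ilpum, against 30.1% of all such genes, and 4 lower in NIL, against 21.7%. In NIL control over Ilpum control 2 were higher, against 15.2%. In both lines 1 was lower, 1 was opposite, and 0 were higher in NIL in both pairs.

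Without descriptions of a domain only, 44 genes were compared. Of these, 2 were higher in NIL, against 14.7% of all genes, and 2 were higher in both lines. In NIL control over Ilpum control 5 were lower, against 14.0% of all genes. Of the 58 genes, a pseudocount of 0.1 gave 5 lower in both lines and 4 higher in NIL in both pairs. TMM scaling gave 11 of the 58 higher in NIL control over Ilpum control, against 18.0% of all genes, and 6 higher in NIL in both pairs. It moved the median of all genes with GRH in NIL to -0.20, against -0.06. Quantile normalization gave 7 of the 58 higher in NIL, against 16.8% of all genes. For 4-fold, and for counts over both lines or both pairs, shares over all genes were not computed under the alternatives. The cause of these moves was not tested, other than the fewer genes or the higher threshold of an alternative.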
